A study of Mus musculus with 2 samples.

Results

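Adipogenic and lipid handling genes are described here across cell types of intact bone with muscle and of fracture callus. The genes were chosen by symbol, with earlier results of these data known. The group's 9 genes (*Pparg*, *Cebpa*, *Lpl*, *Cd36*, *Fabp4*, *Plin2*, *Cfd*, *Apoe* and *Apod*) are 9 of the 32285 genes counted in both libraries. All 9 had at least 1 unique molecular identifier (UMI, 1 counted transcript molecule) in kept callus cells, and 8 had one in kept intact cells, *Cfd* being the exception.

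Single cells sorted for tdTomato were profiled with the 10x Chromium 3′ chemistry, from Clec3b.creERT2; Ai14.R26.tdTomato mice, in which tamoxifen-activated Cre switches on the red fluorescent protein for good in cells that express *Clec3b*. One library came from intact femoral diaphyses with muscle around them, which carried the same alleles and had no fracture, and the other from fracture calluses. Each pooled tissue of 3 littermates, which had tamoxifen 2 weeks before surgery at 6 weeks of age and were sampled 3 weeks after it, and whether both tissues came from the same animals is not given in the sources used here. The study used the comparison to ask how the cells of the *Clec3b* lineage differ during fracture healing.

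With 1 pooled library per condition there were no replicates, and no test between conditions or cell types was possible. Levels are given as CPM, the UMIs of a gene per 1000000 UMIs summed over the cells of a class, and the intervals given with them (95%, exact Poisson for levels and exact conditional binomial for ratios) cover counting error only. A gene is called apart when its CPM differed at least 2-fold between groups, among genes with at least 20 UMIs in both groups summed. Because only the 3′ end of a transcript is counted, CPM does not grow with gene length.

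The sort did not leave fibroblasts alone. Of 1207 kept intact cells, 277 met the gate of fibroblasts, and of 3295 kept callus cells 204 did, beside endothelial cells, marrow stromal cells and many kinds of blood cells. The study reported no meaningful tdTomato expression in the blood and endothelial populations and took them for sorting artifacts. It counted marrow stromal cells of the callus among the *Clec3b* lineage. Whether any of these cells carried the tdTomato transcript was not analysed here, so none of them is called a *Clec3b* descendant. The median depth of kept cells was 4939 UMIs in the intact and 6843 in the callus library, and 1 cell barcode was shared by both. The mice are described as male, although *Xist*, which the inactive X chromosome transcribes, was found in 90.3% of the intact and 94.1% of the callus fibroblasts.

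Fat cell formation is driven by PPARγ and C/EBPα, transcription factors that sustain each other's expression and switch on genes for fatty acid uptake and storage. Lipoprotein lipase releases fatty acids from circulating lipoproteins at the capillary wall, CD36 and fatty acid binding proteins carry them into and through the cell, and perilipins coat the droplets in which they are stored. Several of these proteins are not confined to fat: capillary endothelium uses CD36 and FABP4 for fatty acid transport, macrophages handle lipid with apolipoprotein E, and marrow stromal cells that express the leptin receptor are known as a source of marrow adipocytes.

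Cells were classed by markers among which none of the 9 genes stands. *Pi16*-type fibroblasts, which carry the markers of an adventitial reservoir population, numbered 225 in the intact and 147 in the callus library. *Col15a1*-type fibroblasts, a parenchymal type, numbered 40 and 17, and *Thbs4*-type fibroblasts, with tendon markers, 3 and 15. The callus held 34 marrow stromal cells, in which all 7 markers of the list were found and made up 19954 CPM together. *Cxcl12* alone was at 15986 CPM and *Lepr* at 706.9 CPM. The 3 intact cells in that class had no *Lepr* or *Grem1* UMI, so the label is not borne out there and the marrow stromal class is described in the callus only. Endothelial cells numbered 28 and 91 and macrophages 23 and 96, and in each library all 8 endothelial and all 7 macrophage markers were found in their class. The gates ask for these same markers, so finding them in a class is no separate support for its label. The fibroblast gates of both libraries differed in ways that bear on what follows. For *Thbs4* the *Pi16*-type cells held 12.4 CPM when intact and 313.1 CPM when from callus, and the *Col15a1*-type cells 160.9 and 816.5 CPM. In *Pi16*-type cells *Col15a1* went from 23.6 CPM in intact to 91.0 CPM in callus, and *Pi16* from 3344 to 1992 CPM. In *Col15a1*-type cells the globin gene *Hbb-bs* was at 19847 CPM in intact and 98.8 CPM in callus.

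**Figure D1:**
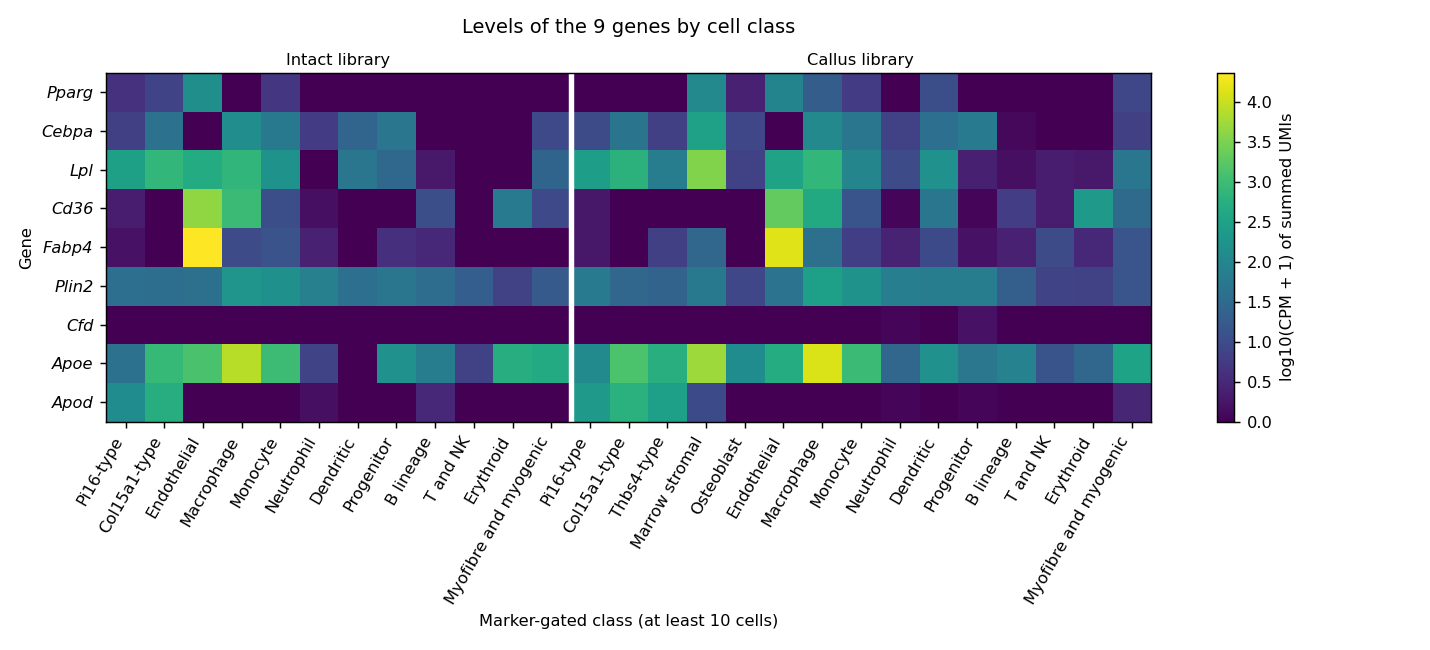
Level of each of the 9 genes (rows) in marker-gated classes of at least 10 cells (columns), as log10(CPM + 1) of summed UMIs. The intact library is left of the white line and the callus library right of it. Callus fibroblasts that met no type, osteoclasts, and mast, basophil and eosinophil cells are not drawn. *Fabp4* is brightest in endothelial cells, *Apoe* in macrophages, *Lpl* in marrow stromal cells, *Apod* in fibroblasts, and the row of *Cfd* is dark throughout.

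RefSeq promoter windows were at hand for 7 of the 9 genes, and *Lpl* and *Fabp4* had none. The 250 bases before the transcription start are printed for 3 of them: for *Pparg* and *Cebpa*, because marrow stromal cells had both transcription factors, and for *Apod*, the gene nearly confined to fibroblasts. The *Pparg* window is the most downstream of its 3, at chr6:115421816-115422065 on the plus strand, the *Cebpa* window lies at chr7:35119043-35119292 on the plus strand and the *Apod* window at chr16:31314809-31315058 on the minus strand, all in GRCm38.p6. Capitals mark matches on either strand to 1 of 4 short motifs. These are the TATA box TATAAA, the letters CCAAT found in many promoters, the form TTGCNNAA of the letters that C/EBP factors recognise, and the GC box GGGCGG.
Pparg: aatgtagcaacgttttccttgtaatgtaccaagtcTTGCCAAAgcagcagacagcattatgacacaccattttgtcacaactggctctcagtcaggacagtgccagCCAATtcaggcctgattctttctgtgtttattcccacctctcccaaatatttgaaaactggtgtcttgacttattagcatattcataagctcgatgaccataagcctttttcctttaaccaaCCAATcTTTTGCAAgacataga
Cebpa: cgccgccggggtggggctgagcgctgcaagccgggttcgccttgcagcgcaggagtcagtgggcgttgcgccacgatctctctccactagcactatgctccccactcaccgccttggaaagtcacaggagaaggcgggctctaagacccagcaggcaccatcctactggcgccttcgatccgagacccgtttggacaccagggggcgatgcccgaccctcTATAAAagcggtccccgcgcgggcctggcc
Apod: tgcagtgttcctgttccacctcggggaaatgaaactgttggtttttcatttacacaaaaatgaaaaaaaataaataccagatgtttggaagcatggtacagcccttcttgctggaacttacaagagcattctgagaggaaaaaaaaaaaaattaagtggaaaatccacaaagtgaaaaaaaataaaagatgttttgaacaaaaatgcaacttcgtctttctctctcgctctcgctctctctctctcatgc
The *Pparg* window held 2 matches to TTGCNNAA, the nearer one 16 bases before the start, and 2 to CCAAT. The other *Pparg* windows, which are not printed, held none to TTGCNNAA: the first had 1 match to GGGCGG, and the second had 2 to GGGCGG, 1 to CCAAT and TATAAA 29 bases before its start. The *Cebpa* window held TATAAA 30 bases before the start, and the *Apod* window held none of the 4, with a GC content of 36.4% beside a median of 52.4% over all windows. Of 32851 windows of this length, 12.4% held TATAAA, 33.85% CCAAT, 9.56% TTGCNNAA and 32.7% GGGCGG. These matches describe letters and not binding, and 3′ counts do not tell which of the *Pparg* starts was used.

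*Pparg*, on GRCm38 chromosome 6 at 115360951 to 115490399, was found in endothelial and marrow stromal cells and hardly in fibroblasts. Its level was 147.5 CPM (73.6 to 263.9) in intact endothelial cells and 89.8 CPM (63.5 to 123.2) in callus endothelial cells, and 112.8 CPM (73.7 to 165.2) in callus marrow stromal cells. All gated fibroblasts together held 7 UMIs in the intact library and 0 in the callus, where 3 counts would be 1.80 CPM. The intervals of the endothelial and marrow stromal classes of the callus overlapped, so their order is not resolved, and both lay above those of macrophages (18.5 CPM) and monocytes (4.82 CPM). After every cell was thinned to 2000 UMIs, *Pparg* was found in 5 of 32 callus marrow stromal cells (15.6%), in 11 of 77 callus endothelial cells (14.3%) and in none of 559 B lineage cells.

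*Cebpa*, on chromosome 7 at 35119293 to 35121928, parted from *Pparg* in the endothelium. It had no UMI in 28 intact and 91 callus endothelial cells, where 3 counts would be 40.2 and 7.09 CPM. Callus marrow stromal cells stood at 307.9 CPM (240.5 to 388.4), level within counting error with the 19 callus mast, basophil and eosinophil cells at 328.0 CPM (245.7 to 429.0). Macrophages followed at 137.4 CPM (76.9 to 226.6) in the intact library and 112.8 CPM (87.4 to 143.3) in callus, and the myeloid progenitors, in which C/EBPα directs granulocyte formation, at 49.5 and 59.3 CPM. In *Pi16*-type fibroblasts the level was 5.59 CPM in intact and 8.75 CPM in callus, from 9 and 10 UMIs. *Col15a1*-type fibroblasts were higher, at 43.6 CPM (23.2 to 74.5) and 46.1 CPM (18.5 to 94.97), but these are 13 and 7 UMIs, and after thinning 2 of 39 and 1 of 17 of these cells had one.

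In the marrow stromal cells of the callus both transcription factors were found, in part in the same cells. Of the 34 cells, 25 had *Cebpa*, 16 had *Pparg* and 13 had both, at a median depth of 6703 UMIs. After thinning, 4 of 32 cells had both, 12 had *Cebpa* alone and 1 had *Pparg* alone. Whether they met in a cell more often than their separate shares would give was not tested. *Adipoq*, the fat cell hormone adiponectin, was found in 34 of 34 at 2572 CPM, and *Lpl* in 32. Yet these cells had no UMI of *Plin1* or *Cidec*, the lipid droplet genes of mature adipocytes, and none of *Lep*. *Cd36* was also at 0 in them, and for each of these genes 3 counts would be 13.01 CPM. *Fabp4* came from 2 cells with 6 UMIs in all. *Cfd* was at 0 too, but so it was in every fibroblast, endothelial and macrophage cell. Its 0 therefore does not set the marrow stromal cells apart.

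*Lpl*, on chromosome 8 at 68880491 to 68907448, encodes lipoprotein lipase, and of the 9 genes it was the one found in the most *Pi16*-type fibroblasts. Its level there was 298.9 CPM (272.8 to 326.9) in the intact library and 279.9 CPM (250.1 to 312.3) in callus, intervals that overlapped. *Col15a1*-type fibroblasts stood at 770.8 CPM (674.4 to 877.2) and 638.7 CPM (517.9 to 779.2), of which 29 of 97 callus UMIs came from 1 cell. *Thbs4*-type cells of the callus were lowest of the fibroblasts, at 69.1 CPM (35.7 to 120.8). After thinning, the share of *Pi16*-type cells with *Lpl* was 42.0% in intact and 37.5% in callus (78.2% and 72.8% unthinned) and that of *Col15a1*-type cells was 74.4% and 52.9%, beside 0.407% and 0% of B lineage cells (medians of 2878 and 3331 UMIs before thinning against 7407 and 7415 in *Pi16*-type cells).

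Marrow stromal cells of the callus held the highest *Lpl* level of any class, 3422 CPM (3187 to 3669). The median cell had 17 UMIs and the highest 120, and the cells were uneven, 2 of 34 having none. Macrophages stood at 750.9 CPM (597.2 to 932.1) in the intact library and 769.5 CPM (700.5 to 843.3) in callus, but 57 of the 82 intact UMIs lay in 1 cell. Endothelial cells, on whose luminal surface the enzyme works after binding GPIHBP1, stood at 482.7 CPM (338.1 to 668.3) and 326.0 CPM (273.9 to 385.2) for *Lpl* itself. *Gpihbp1* was at 1716 CPM in intact and 1091 CPM in callus endothelial cells and had no UMI in gated fibroblasts of either library.

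*Fabp4*, on chromosome 3 at 10204088 to 10208576, encodes the fatty acid binding protein also known as aP2, a textbook marker of adipocytes. Here it was an endothelial transcript: endothelial cells held 99.2% of its UMIs in gated intact cells and 98.3% in gated callus cells. Its level was 22794 CPM (21723 to 23904) in 28 intact endothelial cells, all of which had it, and 13998 CPM (13644 to 14359) in 91 callus endothelial cells, of which 89 had it. Fibroblasts held 2 UMIs in 277 intact cells and 3 in 204 callus cells, or 1.00 and 1.80 CPM. Those values lay beside 2.04 and 1.56 CPM in B lineage cells, so the fibroblast level is no higher than the background. The cells that met the markers of more than 1 compartment and were set aside had 326.8 and 486.3 CPM of it.

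*Cd36*, on chromosome 5 at 17781690 to 17888801, encodes the fatty acid and scavenger receptor. Like *Fabp4* it was highest in the endothelium, at 4291 CPM (3833 to 4787) in the intact library and 2025 CPM (1891 to 2165) in callus. Of 81 callus and 27 intact endothelial cells with *Cd36* every one also had *Fabp4*. Nearly every endothelial cell had *Fabp4*, with 2 of 91 callus cells lacking both genes, so this overlap does not show a link between them. Outside the endothelium the order was different. Macrophages stood at 943.2 CPM (769.9 to 1144) in the intact library and 446.2 CPM (394.1 to 503.3) in callus, and erythroid cells at 60.9 CPM (29.2 to 112.0) and 219.6 CPM (191.5 to 250.7), where *Fabp4* was near 0. Fibroblasts held 2 *Cd36* UMIs in the intact and 1 in the callus library.

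*Plin2*, on chromosome 4 at 86648386 to 86670060, encodes perilipin 2, the droplet coat protein that many cell types make. Its UMIs were found in macrophages, monocytes and neutrophils and, at a lower level, in fibroblasts. Macrophages stood at 183.2 CPM (111.9 to 282.9) in the intact library and 289.6 CPM (247.9 to 336.3) in callus, monocytes at 151.4 and 172.5 CPM, and neutrophils at 76.9 and 73.0 CPM. *Pi16*-type fibroblasts had 37.9 CPM (29.0 to 48.7) and 58.6 CPM (45.4 to 74.4), close to B lineage cells at 34.7 CPM and above them at 19.8 CPM. In marrow stromal cells 9 of the 13 *Plin2* UMIs came from 1 cell.

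*Cfd*, on chromosome 10 at 79890853 to 79892655, encodes adipsin, the complement factor D that fat cells secrete. No fibroblast, marrow stromal, endothelial or macrophage cell of either library had a UMI of it. Over all gated fibroblasts 3 counts would be 1.51 CPM in intact and 1.80 CPM in callus. Callus myeloid progenitors had 5 UMIs in 245 cells, callus neutrophils 1 UMI and the set-aside callus cells 1, and 7 more lay in callus barcodes that the cell filter removed. At this depth *Cfd* can be called not detectable in the fibroblasts, which does not show it to be absent, and whether the reference used for counting covers the gene in full was not tested.

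*Apoe*, on chromosome 7 at 19696109 to 19699188, encodes the apolipoprotein by which cells exchange cholesterol and other lipids. Macrophages held the highest level, 7894 CPM (7376 to 8439) in the intact library and 13123 CPM (12833 to 13417) in callus. Callus marrow stromal cells came next at 5321 CPM (5028 to 5628) and all 34 had it. Monocytes stood at 964.1 and 948.9 CPM and endothelial cells at 1260 CPM (1019 to 1542) in the intact library and 503.2 CPM (437.9 to 575.5) in callus.

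Among fibroblasts *Apoe* was uneven from cell to cell. *Col15a1*-type cells stood at 831.2 CPM (730.9 to 941.3) in the intact library and 1343 CPM (1165 to 1541) in callus, yet the median cell held 1 UMI and 1 cell held 82 of the 248 intact UMIs and 72 of the 204 callus UMIs. *Pi16*-type cells stood at 42.3 CPM (32.8 to 53.6) and 120.7 CPM (101.4 to 142.6), and 1 intact cell held 29 of the 68 UMIs. Thinned, *Apoe* was in 3.38% of *Pi16*-type cells in intact and in 13.2% in callus, beside 6.91% and 12.5% of B lineage cells. T and NK cells had it in 0% and 1.46% and neutrophils in 0.712% and 3.28%. The *Pi16*-type share was thus no higher than that of B lineage cells in intact and close to it in callus. It was above those of T and NK cells and neutrophils. How much of the *Pi16*-type *Apoe* is background was not tested. *Col15a1*-type cells, at 43.6% and 47.1%, were above all 3.

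*Apod*, on chromosome 16 at 31296192 to 31314808, encodes a lipid-carrying lipocalin and was the fibroblast gene of the 9. *Col15a1*-type cells stood at 519.5 CPM (440.9 to 608.0) in the intact library and 599.2 CPM (482.4 to 735.7) in the callus, *Pi16*-type cells at 129.3 CPM (112.3 to 148.1) and 223.9 CPM (197.3 to 253.1), and callus *Thbs4*-type cells at 288.0 CPM (213.8 to 379.7). The interval of callus *Thbs4*-type cells overlapped that of callus *Pi16*-type cells. Endothelial cells and macrophages had no UMI of *Apod* in either library, and 34 callus marrow stromal cells had 2, or 8.67 CPM.

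**Figure D2:**
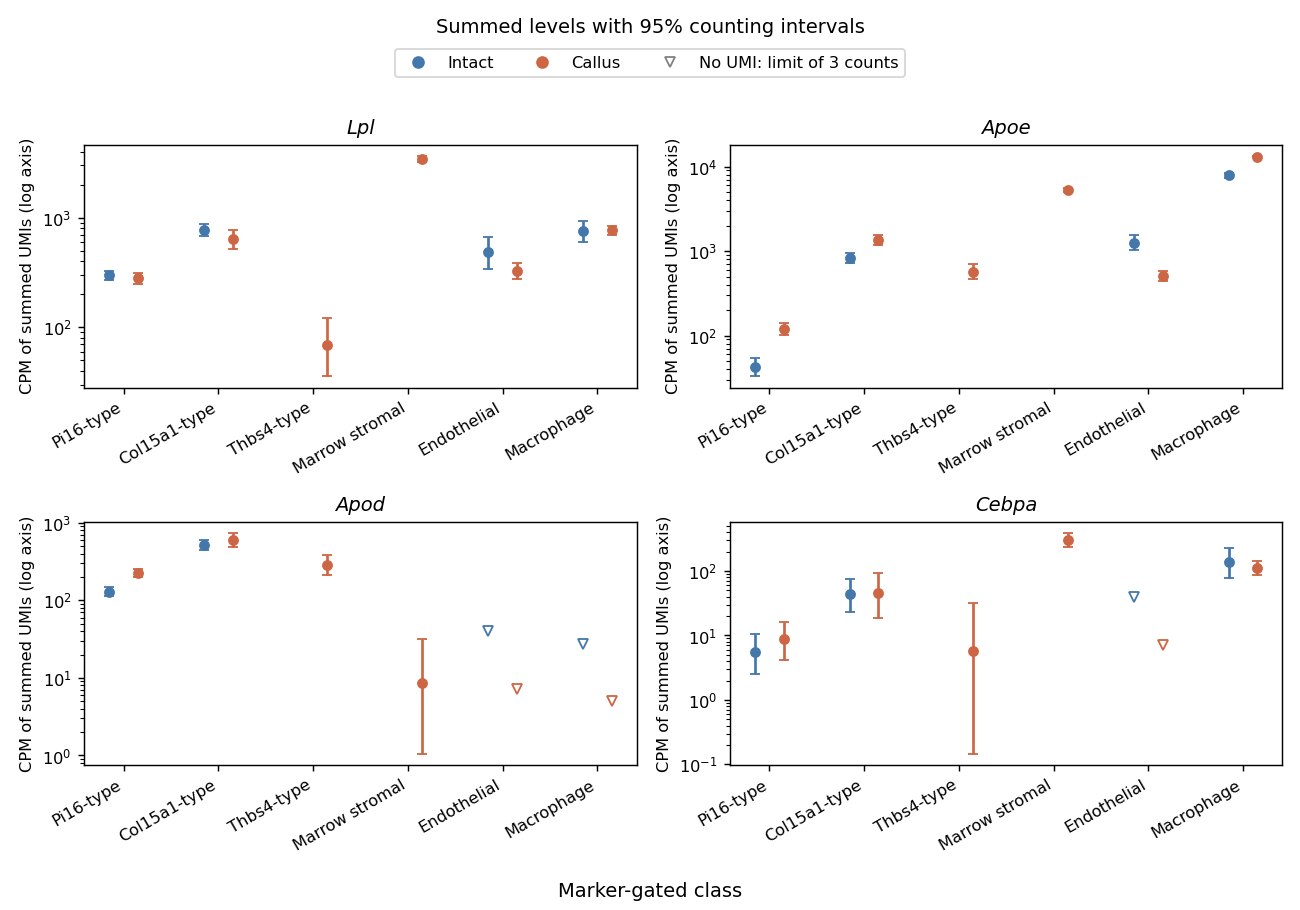
CPM of summed UMIs (log axis) of *Lpl*, *Apoe*, *Apod* and *Cebpa* in 6 classes of at least 10 cells, intact in blue and callus in orange, with 95% counting intervals as bars. Open triangles mark classes with no UMI, drawn at the level of 3 counts. *Apod* is highest in *Col15a1*-type fibroblasts at 519.5 and 599.2 CPM, and the other 3 genes are higher in marrow stromal cells than in any fibroblast type.

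The fibroblast types were compared with each other inside each library. In the intact library 4 of the 5 genes with enough UMIs were at least 2-fold higher in *Col15a1*-type than in *Pi16*-type cells, where 20.2% of 8187 genes were apart in either direction. The log2 ratios were 4.30 (3.91 to 4.71) for *Apoe*, 2.96 (1.62 to 4.37) for *Cebpa*, 2.01 (1.70 to 2.31) for *Apod* and 1.37 (1.13 to 1.60) for *Lpl*. For *Plin2* the ratio was -0.04 (-1.12 to 0.90). In the callus library 3 of 4 were higher, *Apoe* by 3.48 (3.16 to 3.80), *Apod* by 1.42 (1.06 to 1.77) and *Lpl* by 1.19 (0.85 to 1.52) on the log2 scale, and 19.6% of 7214 genes were apart. *Plin2* was lower at -1.15 (-3.07 to 0.27), from 4 UMIs in *Col15a1*-type cells. With it all 4 genes were apart, and the 19.6% counts both directions. When classes came from clusters the callus values were 1.05 for *Apoe*, 0.21 for *Apod* and 0.21 for *Plin2*, and with 1 more marker in every gate the intact *Apoe* value was 6.37. Of the 34 callus cells in the *Col15a1*-type class from clusters, 10 met the *Col15a1*-type gate, so most of them were other cells. Of the 47 other pathway genes 26 had enough UMIs in intact, 4 of them higher and 5 lower in *Col15a1*-type cells. In callus 23 had enough, 2 of them higher and 2 lower, beside the same 20.2% and 19.6% of all genes. With *Col15a1*-type first, *G0s2*, which restrains fat breakdown, was at 291.6 against 18.02 CPM in intact and 217.3 against 27.1 CPM in callus. In intact *Mgll*, a monoglyceride lipase, was at 3.35 against 142.9 CPM. The adipogenic regulators *Ebf2*, at 100.5 against 323.2 CPM, and *Zfp423*, at 16.8 against 40.4 CPM, were also lower there. Another 2 regulators were higher in intact *Col15a1*-type cells, from few UMIs. These were *Dlk1*, at 46.9 against 6.84 CPM, and *Nr1h3*, at 23.5 against 8.08 CPM. *Cav1* was higher as well, at 130.7 against 16.2 CPM.

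*Thbs4*-type cells of the callus took another position. Against *Pi16*-type cells, *Apoe* was higher by 2.24 (1.85 to 2.62) on the log2 scale, while *Lpl* was lower at -2.02 (-2.99 to -1.19) and *Plin2* at -1.35 (-3.26 to 0.08). *Apod*, at 0.36 (-0.10 to 0.81), was not apart. These are 3 of 4 genes with enough UMIs beside 24.2% of all 7257 tested, and they rest on 15 cells.

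Within the *Pi16* type, cells with the *Ptx3* state (at least 2 of *Ptx3*, *Has1* and *Tnfaip6*) were set against the rest. *Apod* was lower in the *Ptx3* state in both libraries, at 87.6 against 224.6 CPM in intact (log2 ratio -1.36, -1.77 to -0.95) and 142.3 against 347.5 CPM in callus (-1.29, -1.67 to -0.92). *Lpl* leaned the same way, at -0.39 (-0.66 to -0.11) and -0.94 (-1.27 to -0.62), within 2-fold. *Apod* was the only one of 4 genes with enough UMIs to be apart in either library, where 7.49% of 7619 genes in intact and 6.37% of 6750 in callus were. The adipogenic regulators *Cebpb* and *Cebpd* went the other way in the intact library, at 386.8 against 122.5 CPM and 1182 against 459.5 CPM, but neither was apart in the callus, at 290.4 against 195.8 CPM and 862.5 against 681.9 CPM. The *Ptx3*-state cells were deeper, with medians of 8457.5 against 4911 UMIs in intact and 9060.5 against 5830 in callus, and after thinning *Apod* was in 11.5% against 25.0% of intact and 15.3% against 32.8% of callus cells.

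**Figure D3:**
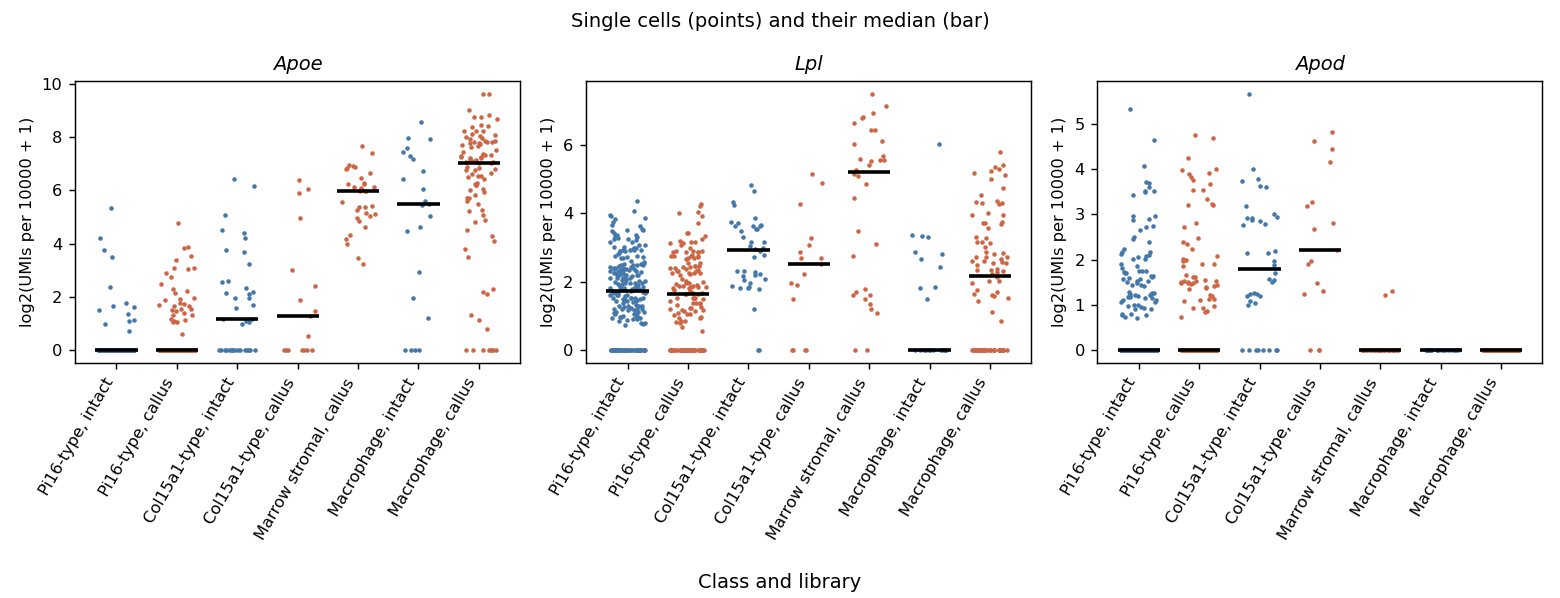
Single cells (points) of 4 classes in log2(UMIs per 10000 + 1) for *Apoe*, *Lpl* and *Apod*, intact in blue and callus in orange, with the class median as a black bar. Most *Pi16*-type cells lie at 0 for *Apoe*, and for *Apod* all macrophages and all but 2 marrow stromal cells lie at 0.

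Callus and intact cells of the same type were compared next. In *Pi16*-type fibroblasts 1 of 4 genes with enough UMIs was apart, *Apoe*, with a log2 ratio of 1.51 (1.08 to 1.95), and 6.14% of 9143 genes were. *Apod* was at 0.79 (0.52 to 1.06), *Plin2* at 0.63 (0.11 to 1.15) and *Lpl* at -0.09 (-0.30 to 0.11). The *Apoe* value was 2.01 without the cell richest in it in each group and 3.31 when every gate asked for 1 more marker, where *Apod* reached 1.11 and was apart too. It stood at 1.41 without the cells that had a *Thbs4* UMI. Over the same libraries *Apoe* in B lineage cells went from 69.4 to 84.8 CPM and in neutrophils from 6.71 to 26.3 CPM, and the share of ambient RNA in the *Pi16*-type difference was not tested.

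In *Col15a1*-type fibroblasts none of the 4 genes with enough UMIs was apart between callus and intact, while 14.6% of 3758 genes were. The ratios were 0.69 (0.42 to 0.97) for *Apoe*, 0.21 (-0.18 to 0.59) for *Apod*, 0.08 (-1.48 to 1.51) for *Cebpa* and -0.27 (-0.63 to 0.08) for *Lpl*. Of the 18 other pathway genes with enough UMIs, *Acly* at 125.1 against 53.6 CPM and *Ebf2* at 210.7 against 100.5 CPM were higher in callus and *Cav1* at 39.5 against 130.7 CPM was lower, a share near that of all genes. The callus class had 17 cells, and with classes from clusters the *Apoe* ratio was -0.38. Those cluster classes held 34 callus cells, of which 10 met the *Col15a1*-type gate, and 55 intact cells, of which 35 did. The ratio from clusters thus describes a largely different set of callus cells.

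Endothelial cells held less of several genes in the callus. *Apoe* was lower at -1.32 (-1.68 to -0.96) and *Cd36* at -1.08 (-1.27 to -0.89), which made 2 of 6 genes apart beside 18.2% of 4514. *Fabp4* was at -0.70 (-0.78 to -0.62), *Pparg* at -0.72 (-1.71 to 0.40), *Lpl* at -0.57 (-1.10 to 0.01) and *Plin2* at 0.16 (-1.61 to 2.56). The endothelial cells differed in depth, with medians of 2432.5 UMIs in intact and 4403 in callus. They also differed in *S100a9*, a marker of the neutrophil gate, at 3272 CPM in intact and 203.2 CPM in callus, and its bearing on the ratios was not tested. Thinned, *Cd36* was in 17 of 17 intact and 65 of 77 callus cells. *G0s2* was at 1059 CPM in intact and 4.73 CPM in callus endothelial cells, but all 79 intact UMIs lay in 1 of the 28 cells.

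Macrophages shared only a part of this. *Cd36* was lower in the callus at -1.08 (-1.41 to -0.74), while *Apoe* was at 0.73 (0.63 to 0.84), *Plin2* at 0.66 (-0.01 to 1.41), *Lpl* at 0.04 (-0.31 to 0.39) and *Cebpa* at -0.28 (-1.11 to 0.63). Without the cell richest in it in each group *Lpl* was at 1.40, and with classes from clusters at 1.96. *Fabp4* was at 2.14 (-0.47 to 7.50), from 1 intact UMI, 10 of the 24 callus UMIs lying in 1 cell. Of 6 genes with enough UMIs 2 were apart, and 20.5% of 4758 genes were. The macrophage classes also differed in *S100a9*, a marker of the neutrophil gate, at 128.2 CPM in intact and 9584 CPM in callus. What this means for the ratios was not tested. *Fabp5*, a related binding protein, was at 54.9 CPM in intact macrophages, from few UMIs, and 653.3 CPM in callus macrophages. Callus endothelial cells held a higher level of it.

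**Figure D4:**
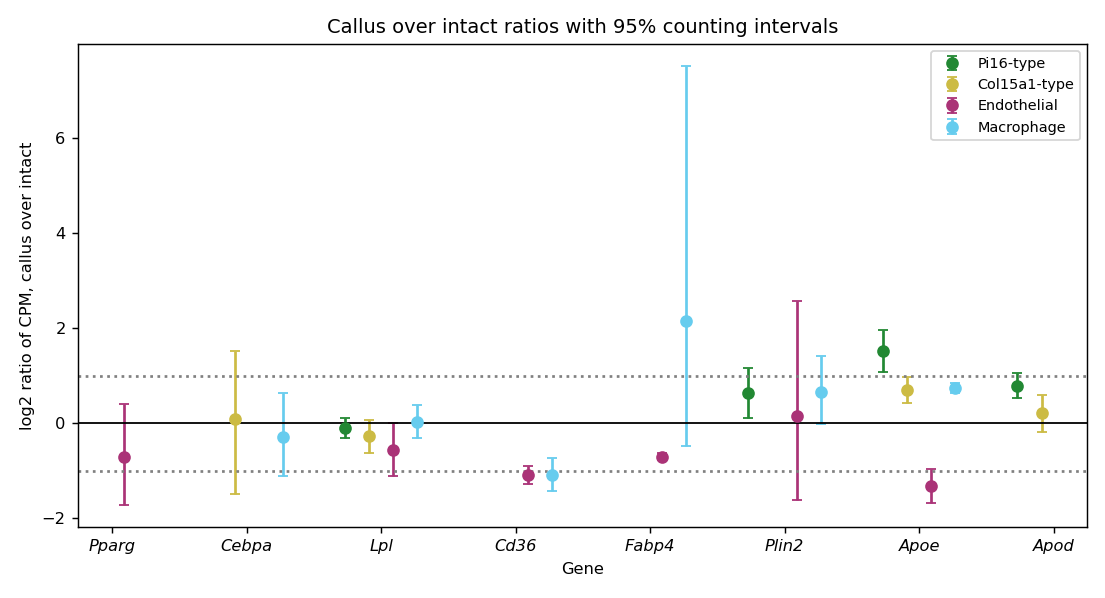
log2 ratio of CPM, callus over intact, for each gene with at least 20 UMIs in both groups summed and a UMI in each, in 4 classes (colours), with 95% counting intervals. Dotted lines mark 2-fold. *Cd36* lies near -1.08 in both endothelial cells and macrophages, and *Apoe* lies above 0 in 3 classes and below it in endothelial cells.

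Last, the other compartments were set against all gated fibroblasts of the callus. In marrow stromal cells *Cebpa* was higher by 4.61 (3.90 to 5.39), *Apoe* by 4.14 (3.98 to 4.29) and *Lpl* by 3.51 (3.35 to 3.68) on the log2 scale, and *Pparg* was at least 62.8-fold higher, taking 3 counts over the fibroblasts as their limit. *Apod* was lower at -5.00 (-8.05 to -3.14) and *Plin2* stood at 0.18 (-0.79 to 1.03), or -1.44 without the cell richest in it. These 5 of 6 genes lay beside 30.7% of 8648 genes. Of the 47 other pathway genes 29 had enough UMIs, 6 of them higher and 12 lower. *Adipoq* at 2572 against 3.59 CPM, *Car3* at 160.5 against 4.19 CPM, *Angptl4*, an inhibitor of lipoprotein lipase, at 303.6 against 10.8 CPM and *Dgat1* at 69.4 against 15.6 CPM were furthest up. *Scd1* (8.67 against 134.1 CPM), *Ebf2* (21.7 against 230.4 CPM), *Cav1* (4.34 against 35.9 CPM) and *Srebf1* (8.67 against 65.8 CPM) were furthest down. *Car3* was far more abundant in the callus osteoblast class, which held 1602 of its UMIs against 37 in marrow stromal cells. Of the macrophage list, 5 of 7 markers had a UMI in these cells with 980.1 CPM in all. *C1qc* and *Adgre1* were at 0 and *C1qa* at 4.34 CPM, from 1 UMI, so nearly all of the sum lay in *C1qb*, *Mrc1*, *Mertk* and *Vcam1*. How it divides among these was not examined, and the sum is not a measure of macrophage RNA.

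In callus endothelial cells *Fabp4* was higher than in fibroblasts by 12.93 (11.38 to 15.21) and *Cd36* by 11.72 (9.24 to 17.03) on the log2 scale, against 3 and 1 fibroblast UMIs, and the *Fabp4* value was 8.08 when classes came from clusters. *Pparg* was at least 50-fold higher and *Apod* at least 39.3-fold lower, with *Lpl* at 0.12 (-0.16 to 0.40), *Apoe* at 0.73 (0.49 to 0.97) and *Plin2* at -0.15 (-0.95 to 0.59). That is 4 of 8 genes, beside 37.5% of 9100. In the intact library 4 of 7 were apart, beside 34.4% of 8594, with *Apoe* among them at 2.87 (2.53 to 3.21). Of the 47 other pathway genes 32 had enough UMIs in the callus, 10 of them higher and 14 lower in endothelial cells. The pathway genes furthest up in the callus endothelium were *Gpihbp1*, at least 607.9-fold, *Scarb1* at 474.9 against 1.80 CPM, *Cav1* at 1866 against 35.9 CPM and *Fabp5* at 1125 against 25.7 CPM. *Lrp1*, the endocytic receptor that also binds apolipoprotein E, was at least 118.6-fold lower, and *Ebf2* at least 32.5-fold lower.

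Callus macrophages differed from fibroblasts in 7 of 7 genes with enough UMIs, beside 42.7% of 9230. *Cd36* was higher by 9.54 (7.05 to 14.85), *Apoe* by 5.44 (5.31 to 5.57), *Fabp4* by 4.49 (2.77 to 6.87), *Cebpa* by 3.17 (2.44 to 3.95), *Plin2* by 2.54 (2.16 to 2.94) and *Lpl* by 1.36 (1.17 to 1.55) on the log2 scale, and *Apod* was at least 55.1-fold lower. The *Fabp4* value rests on 24 and 3 UMIs and was -0.19 when classes came from clusters. *Abcg1* and *Scarb1*, which move cholesterol between cells and lipoproteins, were at 92.6 against 2.99 CPM and 52.2 against 1.80 CPM, and *Pltp*, the phospholipid transfer protein, at 959.7 against 53.3 CPM. The furthest down were the adipogenic regulators *Ebf1*, at 1.68 against 835.5 CPM, and *Ebf2*, at 1.68 against 230.4 CPM. Of the 47 other pathway genes 30 had enough UMIs, 8 of them higher and 16 lower in macrophages. Among the 9 adipogenic regulators tested, 2 were higher and 6 lower.

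Of the 47 other pathway genes, 28 had enough UMIs in *Pi16*-type cells and 2 were apart between conditions, a share near the 6.14% of all genes tested. Both were higher in callus: *Pltp* at 45.5 against 6.21 CPM and *Cav1* at 33.2 against 16.2 CPM. The 9 adipogenic regulators tested there had a median log2 ratio of -0.28, beside 0.04 over all genes tested, and none was apart. The mature adipocyte list, of 9 genes, had none with enough UMIs in any comparison between fibroblast groups.

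Single cells differed in how many of the 9 genes they carried. The median endothelial cell carried 4 in both libraries, the median marrow stromal cell and macrophage 3, and the median *Pi16*-type cell 1 in intact and 2 in callus. At least 4 were found in 50 of 91 callus endothelial cells, 15 of 34 marrow stromal cells, 38 of 96 callus macrophages and 14 of 147 callus *Pi16*-type cells. These counts are not thinned, and the classes differ in depth. After thinning the median *Pi16*-type cell carried 1 in both libraries and the median callus endothelial cell 3. At least 4 were then found in 23 of 77 callus endothelial cells, 13 of 83 callus macrophages, 4 of 32 marrow stromal cells and 1 of 136 callus *Pi16*-type cells. The difference between libraries in the median *Pi16*-type cell thus did not hold at equal depth. Marrow stromal cells and macrophages of the callus changed order in the share with at least 4, at 12.5% and 15.7%, while their thinned medians were 3 and 2.

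Across 23 profiles of a class in a library with at least 20 cells, the genes most like each of the 9 were found among 12065 genes by Pearson correlation of log2(CPM + 10). *Fabp4* went with *Esam* and *Gpihbp1* (r = 0.98 for both), *Esam* being a marker of the endothelial gate, and *Pparg* with *Epas1* (0.93) and *Adgrf5* (0.92). *Apod* went with *Entpd2* and *Scn7a* (0.99 for both), *Lpl* with *Tle1* (0.93) and *Pros1* (0.91), and *Cd36* with *Parvb* (0.92) and *Ednrb* (0.88). For *Plin2* the likest were *Atp6v1b2* and *Atp6v1a* (0.91 for both), for *Cebpa* *Tns3* (0.86) and *Slc16a7* (0.85), for *Apoe* *Selenop* (0.83) and *Tmem176b* (0.82), and for *Cfd*, from a handful of UMIs, *Hsd17b1* and *Fbp1* (0.98 for both). Among the 9 themselves *Pparg* and *Fabp4* (0.83), *Lpl* and *Apoe* (0.81) and *Cd36* and *Fabp4* (0.79) were most alike. The profiles share 2 libraries, so these values describe a pattern.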

How the data were processed

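Per the file headers the authors deposited UMI counts from Cell Ranger 6.0.0, without normalization, and per the labels the genome build was mm10. The study's further processing was not used. Barcodes under 500 genes or over 10% mitochondrial UMIs were removed. A class needed a set number of its markers with a UMI (4 of 8 endothelial, 4 of 7 macrophage, 4 of 7 marrow stromal, 5 of 8 mesenchymal and then 3 of 6 for a fibroblast type, with a lead of 1), and cells meeting gates of more than 1 compartment (21 intact, 148 callus) were set aside. The reported values use no doublet caller. These thresholds were set from the markers alone. Shares were also computed after thinning to 2000 UMIs, leaving out shallower cells. The text names all 9 genes and, of the 47 pathway genes, at most the 4 furthest apart each way. The genes and lists were chosen with earlier results of these data known. Positions are from the GENCODE annotation of GRCm38, which held 32158 (99.6%) of the gene identifiers. The ratio and its interval were tried on simulated Poisson counts without spread between cells, the form of count that the interval assumes. That check does not tell how the interval does where cells are uneven. Total depth was 12112002 UMIs in 1872 intact and 36714322 UMIs in 3987 callus barcodes. Alternatives were other cell filters, 1 more marker per gate, Leiden clusters, doublets kept or removed by Scrublet, the mean of cells, the richest cell left out, 5 or 50 UMIs as minimum, and thinned sums. Tools were python 3.11.15, numpy 2.4.6, scipy 1.17.1, pandas 2.3.3, scanpy 1.11.5 and matplotlib 3.10.9.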

Additional observations from a re-analysis of the deposited data

Results flagged for a closer look

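*Apoe* went opposite ways between callus and intact in different classes: the log2 ratio was 2.84 higher in *Pi16*-type fibroblasts than in endothelial cells, 2.06 higher in macrophages than in endothelial cells and 2.02 higher in *Col15a1*-type fibroblasts than in endothelial cells. With 1 library per condition these differences were not tested. *Apoe* in *Pi16*-type cells of the callus was at 120.7 CPM, beside 84.8 CPM in B lineage cells, 26.3 CPM in neutrophils and 12.8 CPM in T and NK cells. In the intact library it was at 42.3 CPM beside 69.4 CPM in B lineage cells. How much of the *Pi16*-type level is background was not tested. The *Col15a1*-type ratio was -0.38 with Leiden clusters. Barcodes that the cell filter removed, which no comparison uses, held more of several genes in the callus than in the intact library, beyond counting error: *Apoe* at 132.3 CPM, *Fabp4* at 60.99 CPM, *Cd36* at 50.68 CPM, *Lpl* at 24.31 CPM, *Plin2* at 7.01 CPM, *Cebpa* at 3.71 CPM and *Cfd* at 2.88 CPM. In the removed intact barcodes *Apoe* was at 5.44 CPM, *Fabp4* and *Lpl* at 3.48 CPM, and *Cd36* at 19.4 CPM. *Plin2* was at 0.218 CPM there, and *Cebpa* and *Cfd* were at 0. CPM also depends on the other RNA in these barcodes, which was not compared.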

How the results depend on the processing

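Each count of genes apart was computed again under the alternatives, 1 of which was added after seeing the data (*Pi16*-type cells with a *Thbs4* UMI left out). 78 values lay within 1.5 times the reported count and 2 did not. Only the counts were compared, so the genes behind an equal count could differ. In *Pi16*-type fibroblasts 2 genes instead of 1 were apart between callus and intact with 1 more marker in every gate, and in *Col15a1*-type fibroblasts 1 instead of 0 with Leiden clusters. Of the ratios of single genes 485 stayed inside the reported interval, 46 moved beyond it and 2 that were called apart changed direction. Alternatives that changed only the minimum of UMIs decide which genes are tested and leave a ratio as it was. Their values are among the 485 by construction and say nothing about how stable a ratio is. The changes of direction both came with Leiden clusters: *Plin2* between *Col15a1*-type and *Pi16*-type cells of the callus, at 0.21, and *Fabp4* between macrophages and fibroblasts of the callus, at -0.19. Ratios not called apart changed sign too, among them *Apoe* between callus and intact *Col15a1*-type cells, at -0.38 with Leiden clusters. In the callus, 10 of the 34 cells in the *Col15a1*-type class from clusters met the *Col15a1*-type gate. The cause of the changes was not tested. Some thinned shares of cells with a gene were also set against unthinned cells and against a need for 2 UMIs. Of these values 18 lay inside the interval of the thinned share and 14 did not. No paired analysis was possible because each condition had 1 library. *Cfd* in all classes, and *Pparg* and *Cebpa* in fibroblasts, rest on few or no UMIs.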
